A study of Mus musculus with 24 samples.

Results

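The 10 genes described here carry out or control antigen presentation by MHC class II in the mouse. They were taken by symbol from the deposited expression matrix, and all 10 were among its 14159 genes with a symbol. H2-Aa and H2-Ab1 encode the alpha and beta chains of the I-A molecule, H2-Eb1 and H2-Ea-ps those of the I-E molecule, and H2-DMa, H2-DMb1 and H2-DMb2 the chains of the peptide exchange factor H2-M. Cd74 encodes the invariant chain, Ciita the class II transactivator, and Cd86 a costimulatory ligand. Bulk RNA of whole quadriceps muscle was sequenced from C57BL/6 mice (B6) and from MRL/MpJ mice (MRL), an autoimmune-prone strain. Each strain gave 4 groups of 3 libraries, which were uninjured muscle (Uninjured) and muscle with a surgical volumetric loss that received saline (the control injury, Saline), decellularized extracellular matrix from pig intestine (ECM) or polyethylene powder (PE). The operated mice were female, 6 to 8 weeks old at surgery, and injured muscle was taken 21 days later. The 24 libraries were independent samples, and no group carried an engineered allele.

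Class II molecules are carried by dendritic cells, macrophages and B cells, which load them with peptides from engulfed material and show them to CD4+ T cells. The invariant chain holds the peptide groove during transport, lysosomal proteases cut it down, and H2-M exchanges the remaining fragment for a peptide. The transactivator Ciita switches the group on by joining factors that sit on a conserved pair of promoter elements, the X box and the Y box. The strains differ in their H2 haplotype, which is b in B6 mice and k in MRL mice. Mice of the b haplotype do not express the I-E alpha chain, because its gene has lost part of its promoter, and the matrix lists this gene under the older symbol H2-Ea-ps, where ps stands for pseudogene. The gene is named H2-Ea in the current annotation.

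Of the 10 genes, 5 had a promoter in the RefSeq set used, and 4 of these held both elements. The stretches are shown because the same pair of elements precedes genes that were called between the strains and H2-DMb2, which was not. A script searched both strands for an X box core, CTNNNAAC, followed on the same strand by a Y box, ATTGG, with 34 to 37 bases from the start of the one to the start of the other. The pattern was shaped on these promoters, so their matches are no test of it. It was present in 62 of 32851 promoter windows, each from 250 bases before to 50 after a start site, or 0.189%. The X core by itself was in 41.1% and the Y box by itself in 37.4% of the windows. The sequences are those of GRCm38.p6, which is the C57BL/6J genome, and run 5′ to 3′ on the strand of the gene, with the X core and the Y box in capitals.
H2-Aa (chr17:34287857-34287922, minus strand): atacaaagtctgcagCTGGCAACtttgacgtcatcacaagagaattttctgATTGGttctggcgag
H2-Eb1 (chr17:34305758-34305822, plus strand): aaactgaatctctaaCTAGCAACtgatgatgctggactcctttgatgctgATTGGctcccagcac
H2-DMb1 (chr17:34153079-34153144, plus strand): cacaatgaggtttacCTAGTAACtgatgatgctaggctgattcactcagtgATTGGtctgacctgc
H2-DMb2 (chr17:34145108-34145173, plus strand): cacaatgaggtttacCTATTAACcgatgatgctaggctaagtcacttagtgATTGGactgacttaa

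The X core began 84, 94, 97 and 126 bases before the start site of H2-Aa, H2-Eb1, H2-DMb1 and H2-DMb2. No window of H2-DMa held the pair, which says only that these letters were not in the windows searched. The 7 H2 genes lie close together on chromosome 17 of GRCm39, from the start of H2-DMa at 34338515 to the end of H2-Ea at 34563618. Ciita lies on chromosome 16 from 10297923 to 10347694 and Cd86 on the same chromosome from 36424044 to 36486443. Cd74, Ciita and Cd86 are outside the H2 region.

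Values are log2 CPM, counts scaled to a common library size, as deposited. A count of 0 stood at -3.65 in every library, and 3 counts, the limit that a count of 0 allows, stood at -2.33 or 0.119 CPM, which covers counting error only. The mean effective library size was 25149678 reads. The 6 muscle fibre markers summed to between 24850 and 159300 CPM in the 24 libraries, so muscle RNA was present in all of them. The library labelled PE-treated MRL replicate 2 stood apart from its group. Its correlation with its group across genes was 0.812 and 0.827, against 0.904 to 0.976 for all other pairs within a group. In that library the dendritic cell marker Itgax was at 10.68, against -0.66 and 3.60 in the other PE-treated MRL mice, and the macrophage marker Cd68 was at 8.84 against 3.07 and 3.35. Results on PE-treated MRL mice are therefore given with and without it. Groups were compared with limma over all 24 libraries. Its 2-sided p-values were adjusted over all 14159 genes (Benjamini-Hochberg), and genes with an adjusted p under 0.05 are said to be called. Shares of all genes called use this threshold, and no share was computed for unadjusted p-values. Strain differences are MRL minus B6.

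**Figure D1:**
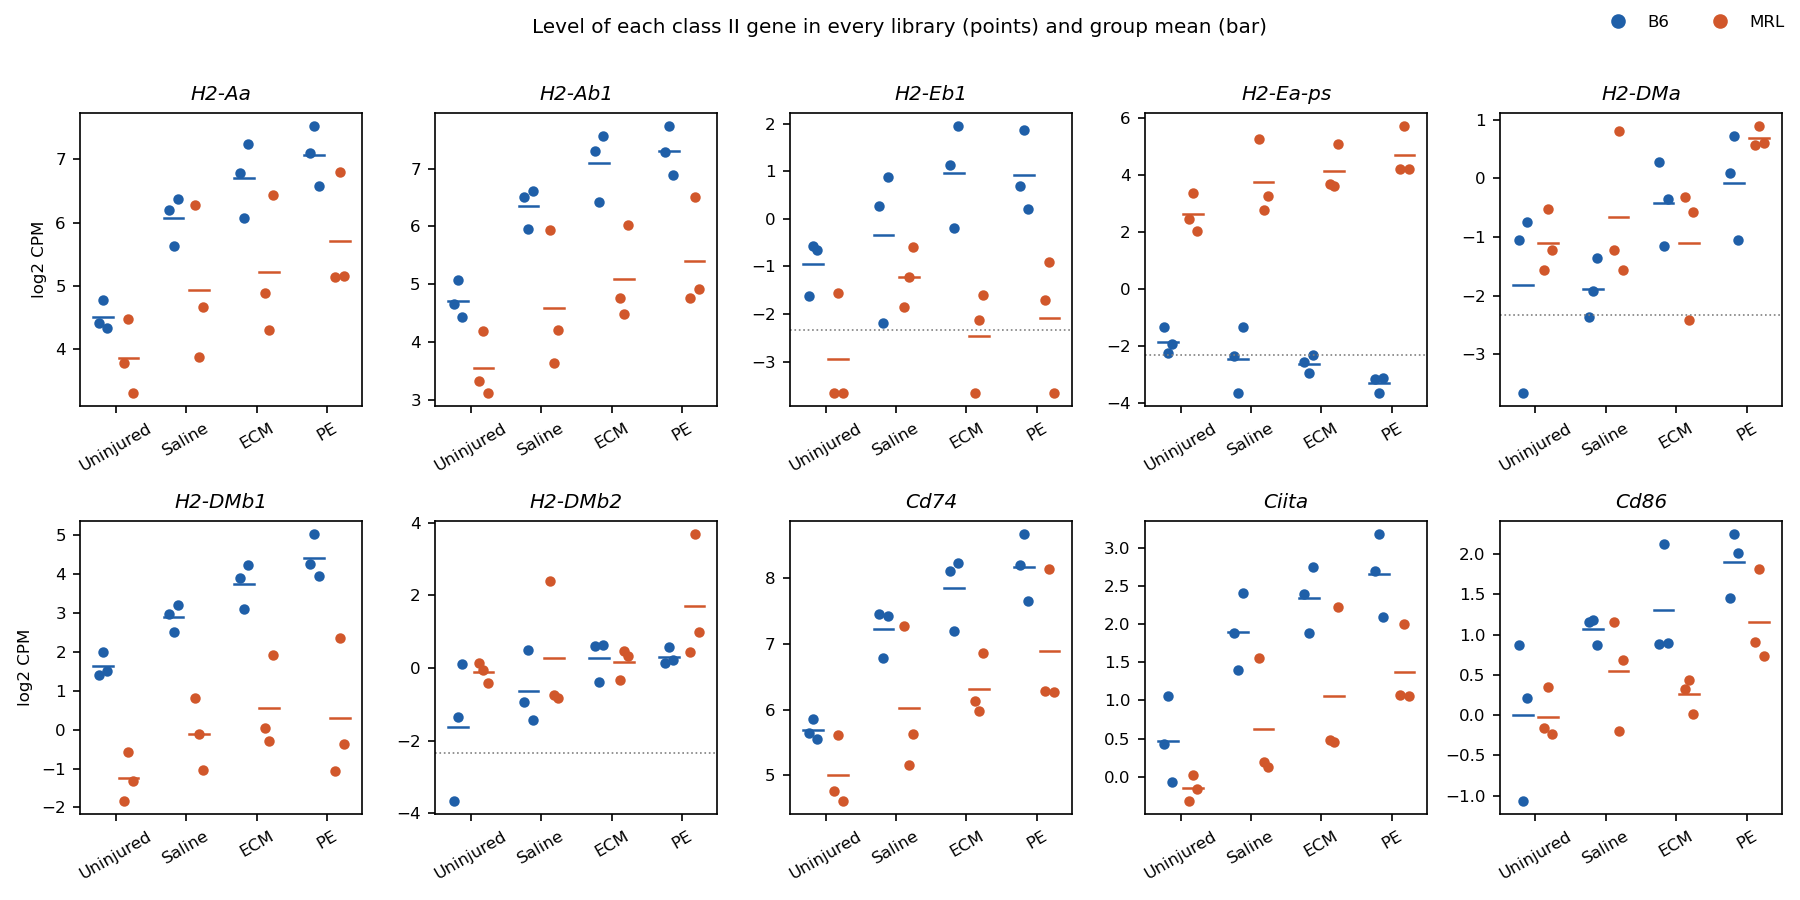
Log2 CPM (y axis) of each of the 10 genes in every library, by treatment (x axis) and strain (colour), with a bar at the mean of 3 libraries; the dotted line, where drawn, marks 3 counts (-2.33). H2-Ea-ps separates the strains in every treatment, H2-DMb1 is lower in MRL mice in every treatment, and the libraries of most other genes overlap between strains in at least 1 treatment.

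H2-Ea-ps, which encodes the alpha chain of I-E, was expressed in MRL mice and near the limit of detection in B6 mice. In MRL mice it stood at 2.46, 3.36 and 2.03 in uninjured muscle, at 5.27, 2.75 and 3.25 after the control injury, at 3.68, 3.61 and 5.08 with ECM and at 4.20, 5.70 and 4.21 with PE. In B6 mice it stood at -1.36, -2.28 and -1.94, at -2.38, -3.65 and -1.35, at -2.59, -2.97 and -2.34, and at -3.17, -3.65 and -3.13 in the same order of treatments. All 12 MRL libraries, from 4.01 to 52.0 CPM, lay above all 12 B6 libraries, from 0 to 0.312 CPM. The MRL group was above the B6 group in 12.2%, 7.48%, 12.9% and 9.89% of all genes in uninjured, control-injured, ECM-treated and PE-treated muscle. In B6 mice 8 of 12 libraries were under 3 counts and 2 were at 0. PE-treated MRL replicate 2, which stood apart in other genes, carried H2-Ea-ps at 5.70 like the other MRL libraries.

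The fitted strain difference of H2-Ea-ps averaged over treatments was 6.37 ± 0.32 (standard error, adjusted p = 8.13e-12). It was 4.48 in uninjured muscle, 6.21 after the control injury, 6.76 with ECM and 8.02 with PE, and limma called it in each treatment. The gene entered the matrix through the MRL libraries alone, since no B6 library reached 1 CPM. Its difference is therefore a description rather than a test. Because most B6 libraries were near 0 counts, the size of these differences depends on the prior count. On a log2(CPM + 1) scale the average was 3.77 and the difference was also called in each treatment. The widening from 4.48 to 8.02 did not pass limma's test of the strain by treatment interaction (adjusted p = 0.969). The responses to PE differed between the strains by 3.54 ± 0.91, which limma did not call either (adjusted p = 0.277). Without PE-treated MRL replicate 2 this difference in response was called. The share of all genes called was not computed for that fit. In a whole muscle, fewer cells that express a gene and less RNA per cell cannot be told apart.

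H2-DMb1, a beta chain of H2-M, differed between the strains in the opposite direction. In B6 mice it stood at 1.40, 2.00 and 1.51 in uninjured muscle, at 2.96, 2.50 and 3.20 after the control injury, at 3.89, 3.11 and 4.22 with ECM and at 4.26, 5.01 and 3.93 with PE. In MRL mice it stood at -1.82, -0.56 and -1.32, at 0.81, -0.11 and -1.04, at 0.04, -0.30 and 1.93, and at -1.07, 2.34 and -0.37. In each treatment the 3 MRL libraries were lower than the 3 B6 ones, as in 9.61%, 7.72%, 12.8% and 7.59% of all genes in uninjured, control-injured, ECM-treated and PE-treated muscle. The strain difference was -3.29 ± 0.35 on average (adjusted p = 1.12e-06), and -2.87, -3.0, -3.18 and -4.10 in uninjured, control-injured, ECM-treated and PE-treated muscle. All 4 differences were called. With 1 library of the groups compared left out, the call was kept in 1 of 6 fits for uninjured muscle, in 2 of 6 for the control injury, in 2 of 6 for ECM and in 6 of 6 for PE, and the average was called in 24 of 24.

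H2-DMb2, the other beta chain of H2-M, overlapped between the strains in every treatment. H2-DMb2 ranged from -3.65 to 0.62 in the B6 libraries and from -0.83 to 3.68 in the MRL libraries, and the average difference of 0.92 ± 0.46 did not pass the test (adjusted p = 0.180). The transcripts of the 2 genes are 94.3% identical over 1129 bases, which is 80.4% of the shorter transcript, so the split of reads between them is uncertain, above all for MRL alleles that the reference does not hold. The sum of both was therefore compared as well. It had a median of 9.31 CPM in the B6 libraries, from 2.56 to 33.6 CPM, and of 1.66 CPM in the MRL libraries, from 0.89 to 17.7 CPM. On the log2 scale the sum was lower in MRL mice by an average of -2.05 (exact permutation test with strain labels exchanged within treatments, 2-sided p = 3.75e-05). As a share of reads, not of molecules, H2-DMb2 made up a median of 6.98% of the sum in the B6 libraries and 65.8% in the MRL libraries. This share differed by 52.5 percentage points on average (p = 1.25e-05 in the same exact test, the smallest that its 160000 arrangements allow), and the highest share in B6 mice, 26.6%, was above the lowest in MRL mice, 23.8%.

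H2-Ab1 and H2-Aa, the chains of I-A, were both lower in MRL mice on average and rose and fell together from library to library. H2-Ab1 stood in B6 mice at 4.65, 5.07 and 4.42 in uninjured muscle, at 6.51, 5.95 and 6.62 after the control injury, at 7.30, 6.42 and 7.57 with ECM and at 7.28, 7.73 and 6.89 with PE. In MRL mice it stood at 3.33, 4.18 and 3.12, at 5.94, 3.64 and 4.20, at 4.75, 4.49 and 6.03, and at 4.76, 6.51 and 4.92. In every treatment all MRL libraries were lower than all B6 libraries, as in 9.61%, 7.72%, 12.8% and 7.59% of all genes in the same order. No single treatment was called (adjusted p from 0.0561 to 0.431). The average difference was -1.71 ± 0.27 (adjusted p = 1.7e-04). H2-Aa ranged from 4.33 to 7.52 in B6 mice and from 3.32 to 6.80 in MRL mice, with an average difference of -1.15 ± 0.29 (adjusted p = 0.0103). Its strains overlapped in each of the 4 treatments.

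H2-Eb1, the beta chain of I-E, was low in both strains. In B6 mice it stood at -1.62, -0.58 and -0.65 in uninjured muscle, at 0.27, -2.18 and 0.87 after the control injury, at 1.12, -0.20 and 1.94 with ECM and at 0.69, 1.86 and 0.21 with PE. In MRL mice it stood at -3.65, -1.55 and -3.65, at -1.85, -1.23 and -0.59, at -3.65, -2.13 and -1.60, and at -1.72, -0.91 and -3.65, so that 4 of 12 MRL libraries were at 0. The average difference of -2.33 ± 0.44 was called (adjusted p = 9.9e-04), as was that with ECM at -3.41 ± 0.87 (adjusted p = 0.0386), which kept its call in 2 of 6 fits with 1 library left out. On the log2(CPM + 1) scale the average difference was -0.89 (adjusted p = 0.00126). No MRL library reached 1 CPM, with a highest value of 0.583 CPM, so the gene entered the matrix through the B6 libraries alone, and its difference is a description rather than a test. The annotated spans of H2-Eb1 and H2-Aa overlap by 2563 bases on opposite strands, and the study's counting commands set no strand option. Whether their transcripts share sequence or reads in that stretch was not tested.

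H2-DMa, the alpha chain of H2-M, did not differ beyond the spread between libraries. It ranged from -3.65 to 0.72 in B6 mice and from -2.41 to 0.88 in MRL mice, with an average difference of 0.50 ± 0.38 (adjusted p = 0.378). Of the 3 chains of H2-M, H2-DMb1 was thus the one called. H2-DMa overlaps Brd2 and Ciita overlaps Dexi on the opposite strand.

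Of the 3 genes outside the H2 region, Cd74 and Ciita were lower in MRL mice on average and Cd86 was not called. Cd74 stood in B6 mice at 5.64, 5.86 and 5.55 in uninjured muscle, at 7.46, 6.79 and 7.43 after the control injury, at 8.12, 7.20 and 8.24 with ECM and at 8.20, 8.67 and 7.66 with PE. In MRL mice it stood at 4.76, 5.62 and 4.61, at 7.28, 5.16 and 5.62, at 6.13, 5.97 and 6.86, and at 6.28, 8.14 and 6.27. The average strain difference was -1.18 ± 0.26 (adjusted p = 0.00354). Group means of Cd74 fell in the order B6 PE, B6 ECM, B6 Saline, MRL PE, MRL ECM, MRL Saline, B6 Uninjured and MRL Uninjured, and the libraries of every pair of neighbours in this order overlapped.

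Ciita ranged from -0.07 to 3.18 in B6 mice and from -0.31 to 2.23 in MRL mice, with an average difference of -1.11 ± 0.25 (adjusted p = 0.00405). Its group means had the same order as those of Cd74. Cd86 ranged from -1.06 to 2.25 in B6 mice and from -0.24 to 1.81 in MRL mice. Its average difference of -0.58 ± 0.23 did not pass the test (adjusted p = 0.0941).

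Averaged over treatments, 7 of the 10 genes were called between strains, where 15.2% of all genes were. H2-Ea-ps was higher in MRL mice, as were 7.37% of all genes, and H2-DMb1, H2-Eb1, H2-Ab1, Cd74, H2-Aa and Ciita were lower, as were 7.87% of all genes. The count of 7 includes H2-Ea-ps and H2-Eb1, which each entered the matrix through a single strain. Their calls here and within treatments are descriptions rather than tests. The median difference of the 10 genes was -1.13, against -0.01 over all genes. Within a treatment, 2 were called in uninjured muscle (2.6% of all genes), 2 after the control injury (2.51%), 3 with ECM (2.66%) and 2 with PE (3.35%). H2-Ea-ps and H2-DMb1 were called in each treatment, and H2-Eb1 with ECM. Between PE-treated groups, residuals of same-numbered libraries correlated across genes at 0.105, 0.532 and 0.439, but the labels do not pair them. With replicate number as a block 4 genes were called there, H2-Ab1 and H2-Eb1 in addition. The share of all genes called with this block was not computed. Without PE-treated MRL replicate 2, 7 genes were called with PE, where 24.6% of all genes were.

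The test of the strain by treatment interaction called none of the 10 genes, with 1, H2-Ea-ps, at an unadjusted p under 0.05, and 0% of all genes. For the single responses, limma called none of the 10 for the control injury, ECM or PE against uninjured muscle, with 0, 1 and 1 at an unadjusted p under 0.05, H2-Ea-ps being that gene both times, and 0%, 0.00706% and 0.0212% of all genes called. Without PE-treated MRL replicate 2, 1 of the 10, H2-Ea-ps, was called for PE, with the larger response in MRL mice. That call is a description rather than a test, and the share of all genes was not computed for it. The lack of calls with all libraries does not show that the strain difference was the same in all treatments. The difference of Cd74 went from -0.69 in uninjured muscle to -1.21, -1.53 and -1.28 in control-injured, ECM-treated and PE-treated muscle, and that of H2-Ab1 from -1.17 to -1.77, -2.01 and -1.90. Strain differences in the H2 region and elsewhere in the genome cannot be told apart in this design. The reads of MRL mice were assigned with a C57BL/6J transcriptome, and its part in the MRL values was not tested.

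**Figure D2:**
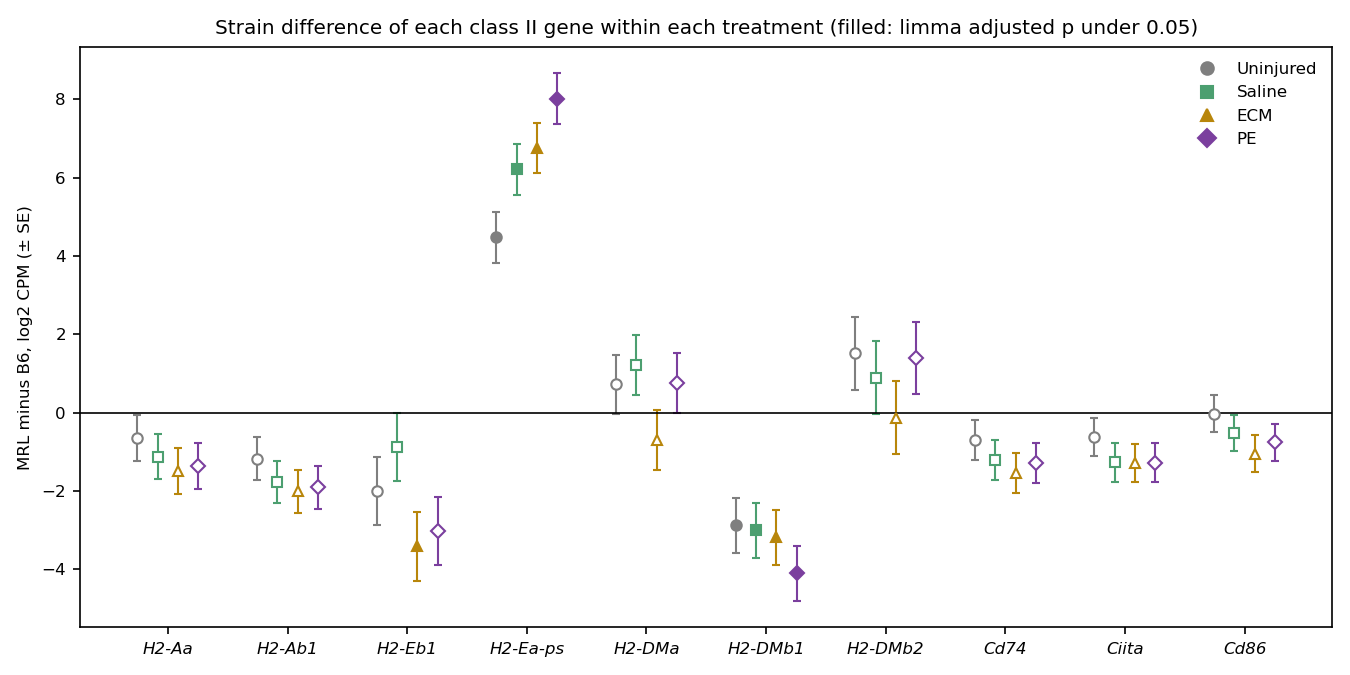
MRL minus B6 difference in log2 CPM (y axis, bars are standard errors of the fit) of each gene (x axis) in each of 4 treatments (shape and colour); filled symbols have an adjusted p under 0.05. H2-Ea-ps is above 4 in every treatment and H2-DMb1 below -2 in every treatment, while H2-Aa, H2-Ab1, Cd74 and Ciita lie between 0 and -2.1.

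Within B6 mice 6 of the 10 genes were called higher with PE than in uninjured muscle, and none was called after the control injury or with ECM. The difference of Cd74 from uninjured muscle was 1.54 ± 0.51 after the control injury, 2.17 with ECM and 2.49 with PE, and limma's adjusted p was 0.303, 0.0649 and 0.00442. That of H2-Ab1 was 1.64, 2.38 and 2.58 (adjusted p = 0.303, 0.0565 and 0.00498). All 3 libraries of each injured group lay above the uninjured ones for both genes, as in 8.59%, 17.7% and 27% of all genes. Over all genes 24.8% were called with PE and 14.7% were called higher. The 6 genes were H2-DMb1 by 2.77, H2-Ab1 by 2.58, H2-Aa by 2.56, Cd74 by 2.49, Ciita by 2.18 and Cd86 by 1.90. The median of the 10 genes was 2.06, against 0.02 over all genes. Without PE-treated B6 replicate 2, only H2-Ab1 and Cd74 of these 6 were called, and the difference of H2-Aa was 2.33 (adjusted p = 0.0527). The share of all genes called was not computed for that fit, so this drop is not set against a background.

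With ECM none of the 10 genes was called in B6 mice by limma, where 0.424% of all genes were, but 7 had an unadjusted p under 0.05, and fitting only the libraries of the 2 groups called 5. After the control injury none was called, 5 had an unadjusted p under 0.05 and 0% of all genes were called. The shares of all genes are at the adjusted threshold in the main fit. They are no background for the counts at an unadjusted p or for the fit of only the 2 groups. H2-Ea-ps went the other way in B6 mice, by -0.60, -0.78 and -1.46 in the same order, which did not pass the test and lay near the limit of detection. None was called between the injured B6 groups (0.0283% of all genes for ECM against the control injury, 5.97% for PE against the control injury and 0.226% for PE against ECM). In those comparisons 0, 2 and 0 genes had an unadjusted p under 0.05, and H2-DMa and H2-DMb1 were the 2, higher with PE than after the control injury by 1.80 and 1.51.

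Within MRL mice 3 class II genes passed the test with PE, 1 of them H2-Ea-ps. Cd74 was higher than in uninjured muscle by 1.90 ± 0.51 (adjusted p = 0.0448), H2-Ab1 by 1.85 ± 0.54 (adjusted p = 0.0468) and H2-Ea-ps by 2.09 ± 0.64 (adjusted p = 0.0484), or 3 of 10 genes, where 9.73% of all genes were called and 5.95% were called higher. H2-Aa missed the threshold at 1.84 (adjusted p = 0.0501) and Ciita at 1.52 (adjusted p = 0.0522). Without PE-treated MRL replicate 2 none was called, as for all but 0.00706% of genes, and the differences of Cd74, H2-Ab1 and H2-Ea-ps were 1.28, 1.29 and 1.59 (adjusted p = 0.201, 0.229 and 0.237). Leaving out uninjured MRL replicate 1 or 3 also ended all 3 calls, and fitting only the 2 groups did so too. With either of the other PE-treated libraries left out, 6 and 5 genes were called, and the share of all genes was not computed for these fits.

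Neither the control injury nor ECM gave a call among the 10 genes in MRL mice. For the control injury 0 genes had an unadjusted p under 0.05 and 0% of all genes were called. For ECM 6 had an unadjusted p under 0.05 and 0.0141% of all genes were called, with differences of 1.32 for Cd74, 1.54 for H2-Ab1 and 1.51 for H2-Ea-ps. That share is at the adjusted threshold and is no background for the count at an unadjusted p. Control-injured MRL replicate 1 was high for most class II genes, as in Cd74 at 7.28 against 5.16 and 5.62. ECM-treated MRL replicate 3 was high for I-A and Ciita, as in H2-Aa at 6.44 against 4.89 and 4.31. No gene of the 10 was called between the injured MRL groups, with 0, 0 and 1 at an unadjusted p under 0.05 for ECM against the control injury (0.00706% of all genes called), PE against the control injury (0%) and PE against ECM (0%). That 1 gene was H2-DMa, with a difference of 1.79. The comparisons with uninjured muscle share its 3 libraries within a strain.

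**Figure D3:**
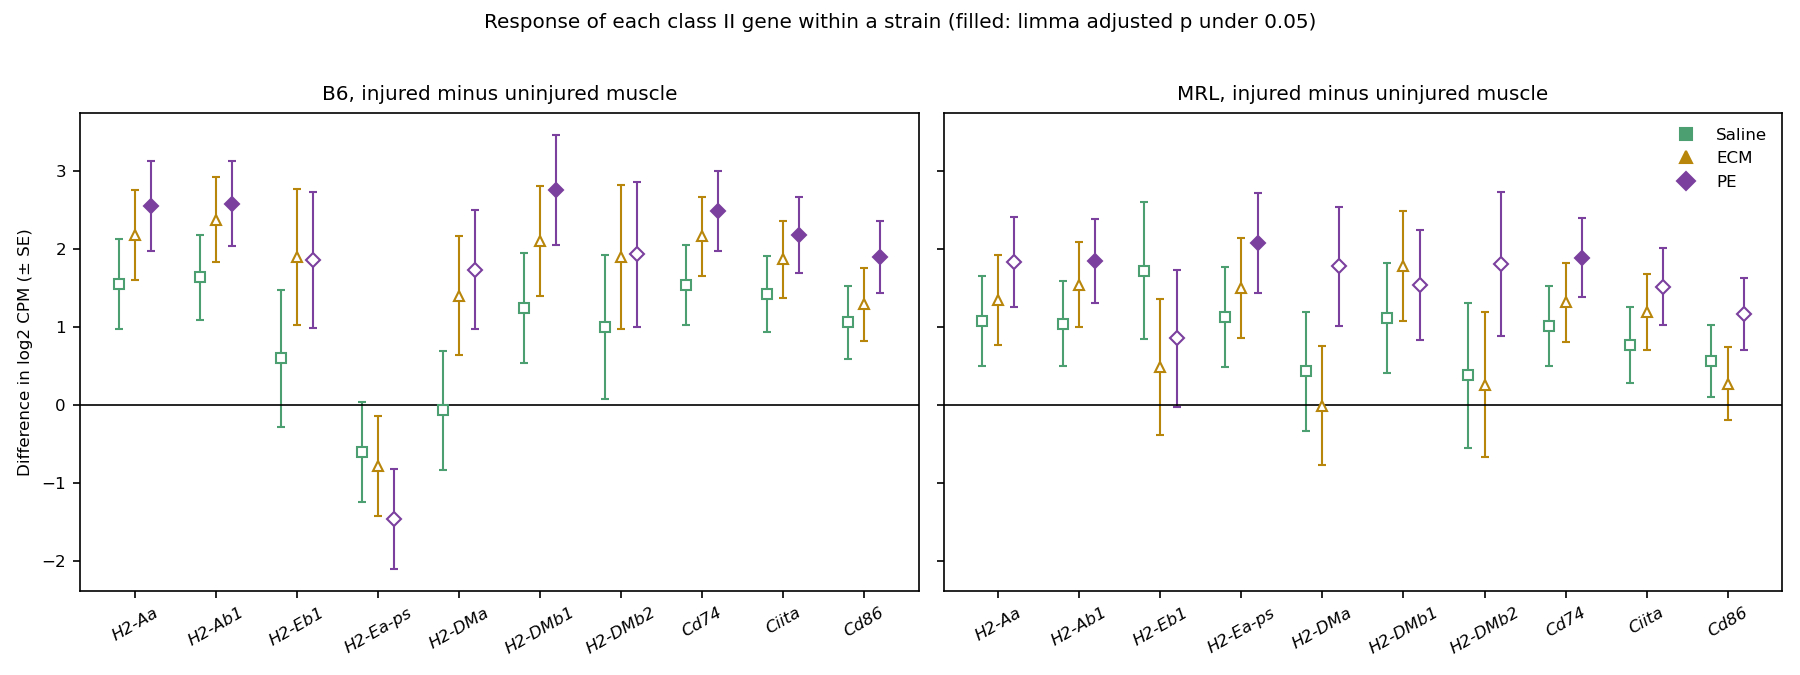
Injured minus uninjured difference in log2 CPM (y axis, bars are standard errors of the fit) of each gene (x axis) after the control injury, with ECM and with PE, in B6 mice (left) and MRL mice (right); filled symbols have an adjusted p under 0.05. In B6 mice 6 genes are filled for PE, from 1.90 to 2.77, and in MRL mice 3, from 1.85 to 2.09.

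Cd74 was used as a yardstick within each library, because it belongs to the class II pathway but lies outside the H2 region. The difference of each of the other 9 genes from Cd74 was compared between strains by an exact permutation test with strain labels exchanged within treatments, 2-sided, and the p-values were adjusted over these 9 comparisons. H2-Aa kept nearly the same distance from Cd74 in both strains, -1.15 ± 0.10 (SD, n = 12) in the B6 libraries and -1.13 ± 0.30 in the MRL libraries. The difference was 0.02 (adjusted p = 0.84, exact test). Ciita lay at -5.40 ± 0.27 and -5.33 ± 0.43, a difference of 0.07 (adjusted p = 0.743, exact test). In these 2 genes the strain difference in level was thus about that of Cd74 itself.

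For 6 of the 9 genes the distance from Cd74 differed between strains. H2-Ab1 was lower relative to Cd74 in MRL mice, at -1.40 ± 0.20 (SD, n = 12) against -0.87 ± 0.12 in B6 mice, and its difference lay between -0.47 and -0.62 in the 4 treatments. The average was -0.53 (adjusted p = 3.75e-05, exact test). H2-DMb1 was lower by -2.11, from -1.65 with ECM to -2.82 with PE (adjusted p = 3.75e-05, exact test), and by -1.18 on the log2(CPM + 1) scale. H2-Eb1 was lower by -1.15 (adjusted p = 0.0194, exact test), but 0.28 higher on the log2(CPM + 1) scale, where it did not pass. H2-Ea-ps was higher by 7.55 (adjusted p = 3.75e-05), H2-DMb2 by 2.10 (adjusted p = 1.1e-04) and H2-DMa by 1.68 (adjusted p = 3.4e-04), all in the exact test. The size for H2-Ea-ps depends on the prior count and was 4.93 on the log2(CPM + 1) scale. H2-Ea-ps and H2-Eb1 each entered the matrix through a single strain, so their comparisons are descriptions rather than tests. For Cd86 the difference was 0.59, which did not pass (adjusted p = 0.064, exact test). On the log2(CPM + 1) scale Ciita (0.36, adjusted p = 0.0375) and Cd86 (0.76, adjusted p = 0.0136) passed the same exact permutation test.

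Within MRL mice, H2-Ea-ps followed Cd74 closely. The log2 ratio was -2.26 ± 0.23 over the 12 libraries and its group means were -2.38, -2.26, -2.19 and -2.19 in uninjured, control-injured, ECM-treated and PE-treated muscle. These means differed by less than the SD between libraries. The rise of H2-Ea-ps with PE in MRL mice was thus of the size of that of Cd74. PE-treated MRL replicate 2 did not stand apart in this ratio, since the 3 libraries of its group lay between -2.43 and -2.06.

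**Figure D4:**
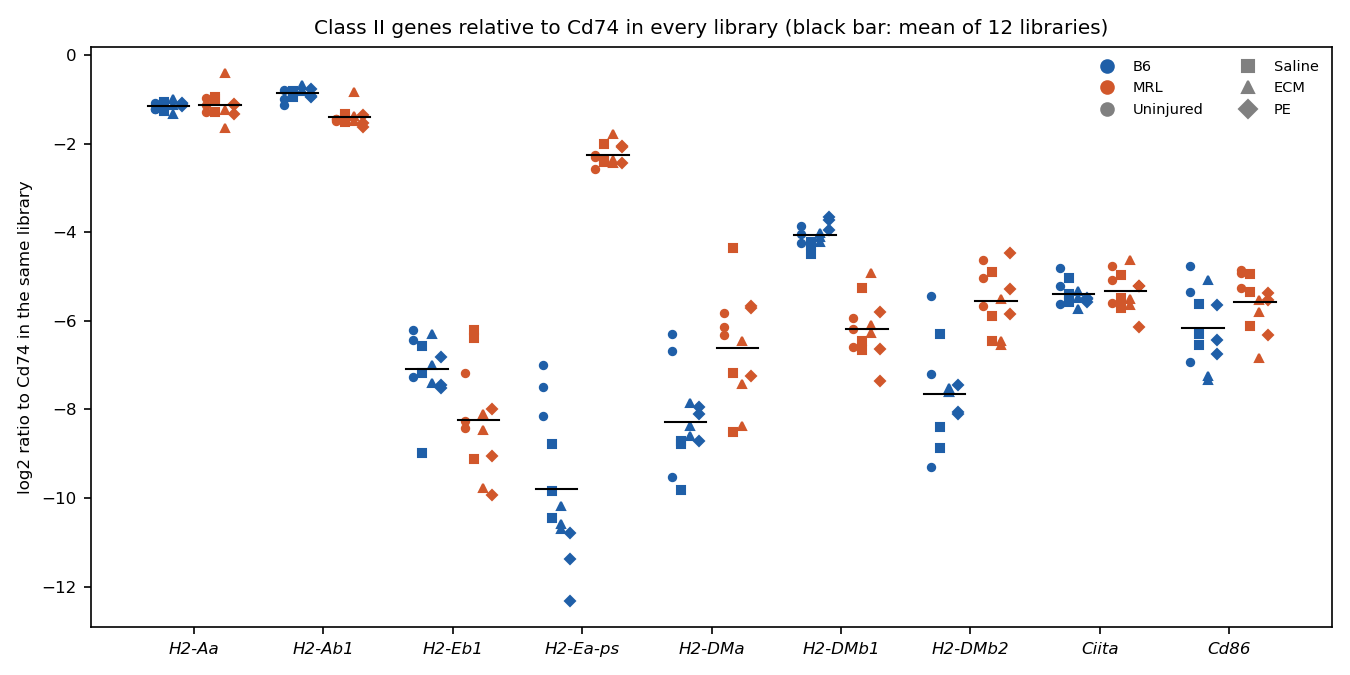
Log2 ratio of each gene to Cd74 in the same library (y axis), for 9 genes (x axis), in 12 B6 and 12 MRL libraries (colour) under 4 treatments (shape), with a black bar at the mean of each strain. H2-Aa and Ciita have nearly the same mean ratio in both strains, H2-Ab1 and H2-DMb1 are lower in MRL mice, and H2-Ea-ps is 7.55 higher, a size that depends on the prior count (4.93 on the log2(CPM + 1) scale).

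The genes whose level was most like that of Cd74 over the 24 libraries, after the mean of each strain was removed, were H2-Ab1 (Pearson's r = 0.990), H2-Aa (0.980), C1qa (0.961), Mfap2 (0.953), Ms4a7 (0.946), Marcks (0.944), Mmp14 (0.942), C1qc (0.941), Ciita (0.941) and Cpxm1 (0.938). These are descriptions of likeness among all 14159 genes, in libraries that share their treatment groups. H2-DMb1 came at rank 25 (r = 0.914), and H2-DMb2, Cd86, H2-Eb1, H2-DMa and H2-Ea-ps lay at 0.724, 0.706, 0.624, 0.489 and 0.349. For H2-Ea-ps this value includes the B6 libraries, where the gene was near the limit of detection. C1qa and C1qc, which encode chains of complement C1q, are among the macrophage markers described next.

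Levels of macrophage markers were set beside those of the class II genes. Of 9 markers in the matrix, 9 were higher with PE than in uninjured muscle of B6 mice and 6 in MRL mice, with medians of 3.28 and 1.94, where 14.7% and 5.95% of all genes were called higher. Between strains 3 were lower in MRL mice on average, as were 7.87% of all genes (C1qb by -1.40, Fcgr1 by -1.30 and C1qc by -0.94). In B6 mice with PE the largest were Cd68 at 5.76, Lyz2 at 4.91, Aif1 at 3.82 and Fcgr1 at 3.71. Their summed level was 136.8 to 169.4 CPM in uninjured B6 muscle and 1424 to 5112 CPM with PE. In MRL mice it was 78.5 to 165.6 CPM in uninjured muscle and 223.4, 4220 and 231.0 CPM with PE. Without PE-treated MRL replicate 2, 0 of 9 markers were called with PE against uninjured muscle in MRL mice, as for all but 0.00706% of genes. All 9 were still above 0 there, with a median of 1.19. In the strain difference averaged over treatments, 9 of 9 were lower in MRL mice without that library, where 17.7% of all genes were. Between injured B6 groups the markers and the class II genes went less closely together. With PE against the control injury 5 of 9 markers were called higher (median 1.98), where 5.37% of all genes were. The median of the 10 class II genes was 0.95 there, with none called. For PE against ECM the medians were 1.82 and 0.32, with none called in either list. With the mean log2 CPM of the 9 macrophage markers in place of Cd74 as the yardstick, 6 of the 9 class II genes compared differed between the strains in the same exact test. These include H2-Ea-ps and H2-Eb1, which each entered the matrix through a single strain, so their comparisons are descriptions rather than tests.

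**Figure D5:**
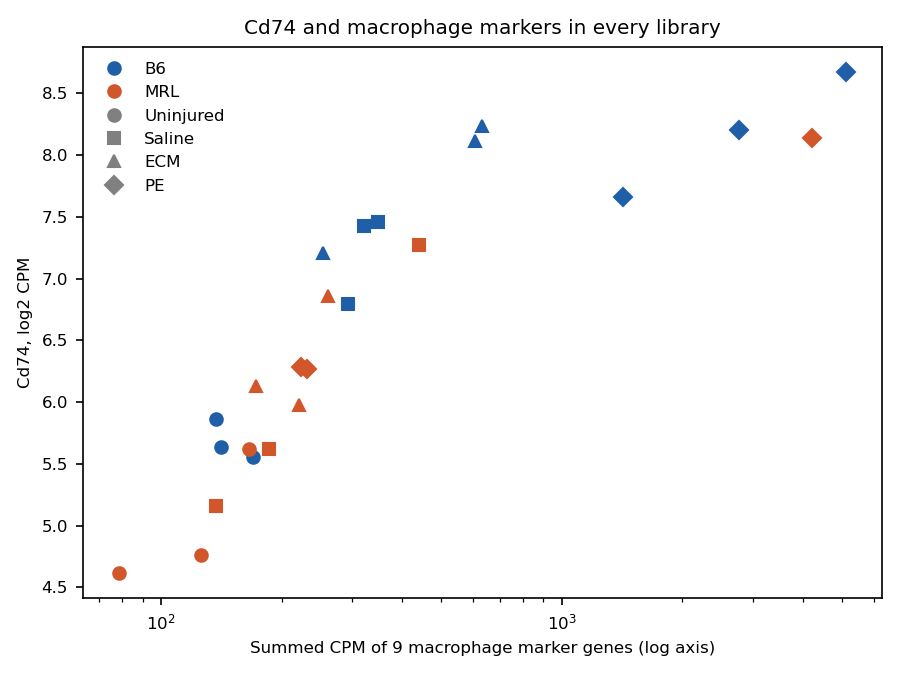
Cd74 in log2 CPM (y axis) against the summed CPM of 9 macrophage markers on a log axis (x axis) in every library, by strain (colour) and treatment (shape). Libraries with more macrophage marker RNA tend to have more Cd74 in both strains, and the MRL library at 4220 CPM and 8.14 is the PE-treated replicate 2. PE-treated B6 replicate 3, at 1424 CPM, has less Cd74 (7.66) than ECM-treated B6 replicates 1 and 3 (8.12 and 8.24), at 608.9 and 633.1 CPM.

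Markers of other cells that carry class II were also counted. Of 10 dendritic cell markers, 6 were higher with PE than in uninjured muscle of B6 mice, the largest Itgax at 8.05, Ccr7 at 3.21, Flt3 at 2.53 and Batf3 at 2.31, against 14.7% of all genes. In MRL mice 2 were, against 5.95%, Clec10a at 2.00 and Fscn1 at 1.25. On average over treatments Batf3 (-1.70) and Ccr7 (-1.21) were lower in MRL mice, as were 7.87% of all genes. Of the 10 B cell markers listed, 4 were in the matrix, and the defining markers Ms4a1, Cd79a and Cd79b were not analysed here. Cd22 was called higher with PE in B6 mice by 4.07, where 14.7% of all genes were. It was the only 1 of the 4 above 0 there, and their median was -0.35. Ighm was called lower with PE in MRL mice by -1.41, where 9.73% of all genes were called in either direction. The other 3 were above 0 there, and the median of the 4 was 0.89. Of 8 T cell markers, Cd3e (-2.45), Cd3d (-2.02) and Lck (-1.32) were lower in MRL mice on average, against 7.87% of all genes. Cd4 alone was called higher with PE in B6 mice, by 2.95, against 14.7% of all genes. In MRL mice Lck alone was, by 2.59, against 5.95%. Of 6 adipocyte markers, Cidec alone was called with PE against uninjured muscle of B6 mice, lower by -3.52, where 24.8% of all genes were called in either direction. Between strains with PE, Lep alone was called, higher in MRL mice by 4.82, where 3.35% of all genes were called in either direction. Without PE-treated MRL replicate 2, 5 of the 6 adipocyte markers were higher in MRL than in B6 mice with PE (median 4.56), where 10.6% of all genes were. Without it, none of the dendritic, B or T cell markers was called with PE against uninjured muscle in MRL mice, as for all but 0.00706% of genes. None of the 6 muscle fibre markers was called in any of these comparisons. The part of these cells in the class II values was not tested.

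Other genes of the pathway were read from lists. Of 9 peptide loading and processing genes in the matrix, 6 were higher with PE than in uninjured muscle of B6 mice, against 14.7% of all genes. The largest were the protease gene Ctss, whose product cuts down the invariant chain, by 6.82, March1, which encodes a ubiquitin ligase for class II, by 3.83, the legumain gene Lgmn by 3.47 and Ctsl by 2.92. In MRL mice March1 (2.49), Ctsb (1.61) and Ctsl (1.56) were higher, against 5.95% of all genes. H2-Ob (-1.08), a chain of the H2-M inhibitor H2-O, and Ctsl (-0.85) were lower in MRL mice on average, or 2 of 9 against 7.87% of all genes. When PE-treated MRL replicate 2 was left out, 7 of 9 were lower on average, against 17.7% of all genes, and 6 of 9 in PE-treated muscle, where 0 were with it, against 14.1%. In B6 mice 6 of these 9 were also higher with PE than after the control injury, where 5.37% of all genes were, among them Ctss by 5.07, March1 by 2.88, Ctsb by 2.53 and Lgmn by 2.38.

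Of 12 transcription factors of the pathway, 4 were higher with PE in B6 mice and 1 was lower, or 5 called against 24.8% of all genes. Spi1 rose by 4.53, Irf8 by 2.84, Prdm1, which encodes a repressor of Ciita, by 1.90 and Nfya by 1.11, and Rfxap fell by 0.47. In MRL mice Spi1 (2.98) and Prdm1 (1.57) were higher with PE, or 2 of 12 against 5.95% of all genes. Between strains, Nfyb was 0.93 higher and Rfxank -0.37 lower in MRL mice on average, and 2 of 12 called is near the 15.2% of all genes. With PE-treated MRL replicate 2 left out, 6 of 12 were called, against 32.7% of all genes. The median of these 12 genes was -0.01 with PE in B6 mice, against 0.02 over all genes. Among genes of interferon gamma signalling, which induces Ciita, Cxcl9 (-1.75) and Gbp2 (-0.82) were lower in MRL mice on average. Of 6 genes of costimulation, Cd80 (3.94) and Cd83 (3.77) were higher with PE in B6 mice, against 14.7% of all genes. Cd274 (1.73) was higher with PE in MRL mice, against 5.95%. It was lower in MRL than in B6 mice on average (-0.70), against 7.87%. Without PE-treated MRL replicate 2, none of the loading, transcription factor or costimulation genes was called with PE against uninjured muscle in MRL mice, as for all but 0.00706% of genes.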

How the data were processed

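Whole quadriceps RNA was sequenced in 24 libraries from poly(A)-selected RNA. According to the study's methods, the authors assigned reads with kallisto to the Ensembl cDNA of GRCm39, summed them to genes with tximport and a version 79 annotation, kept genes above 1 CPM in at least 3 libraries, scaled with edgeR's TMM and deposited log2 CPM with a prior count of 2. Transcripts absent from the older annotation drop out of a gene's sum, and the effect on single genes was not tested, so levels are not compared between genes, apart from the split of reads between H2-DMb1 and H2-DMb2. Of 14160 rows, 1 without a symbol was left out.

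Groups follow the labels. In R 4.3.3, limma 3.58.1 with a variance trend was fitted with 1 coefficient per group; the study's voom weights need counts, which the log2 values do not give. Linear CPM is 2 to the power of the deposited value, less the prior. The fit was tested on simulated data. Replicate numbers were tested for pairing by the correlation of residuals across genes. All 3 correlations were above 0.1 only between strains with PE (0.105, 0.532 and 0.439), a hint from the data and not from the labels. Copies were found with BLAST 2.17.0 at 90% identity or more over 50% of the shorter transcript, and sequences came from RefSeq. Python 3.11.15, SciPy 1.17.1, pandas 2.3.3, Biopython 1.88 and matplotlib 3.10.9 were used. The 10 genes and the lists were chosen with earlier results of these data known. Of the lists, at most 4 called genes per list, comparison and direction, those with the largest change, were named, some list genes are not reported here, and the 10 genes most like Cd74 leave out predicted genes and pseudogenes. Nothing in the labels ties replicates to cages or batches, so p-values measure the spread between these muscles. Alternatives were a log2(CPM + 1) scale, a mean log2 CPM of at least 1, equal totals, quantile normalization, library weights, only the groups compared, a replicate block and each library left out.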

Additional observations from a re-analysis of the deposited data

How the results depend on the processing

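Counts below are of the 10 class II genes called. The share of all genes called was not computed under these alternatives, except without PE-treated MRL replicate 2. There the share for the strain difference with PE went from 3.35% to 24.6%. The changes in count below are therefore not set against a background and are no result about these genes. The average strain difference called 5 to 8 under all alternatives (7 in the report). In the separate strain differences, library weights called 6 (control injury), 7 (ECM) and 7 (PE), against 2, 3 and 2. A mean log2 CPM of at least 1, which leaves fewer class II genes to test, called 1 in each of the 4 treatments. In uninjured muscle log2(CPM + 1) and equal totals called 1, and with PE fitting only the groups compared called 1. With 1 library left out the counts were 1 to 2 (uninjured), 1 to 4 (control injury), 1 to 5 (ECM) and 2 to 7 (PE). Every library but MRL replicate 2 gave 1 in uninjured muscle. After the control injury MRL replicate 1 gave 4 and all others but B6 replicate 2 gave 1, and with ECM MRL replicate 3 gave 5, B6 replicate 2 gave 4 and the others 1. Library weights called 1 for the interaction, 4 for the control injury and 5 for ECM against uninjured muscle in B6 mice, and 2 for PE against the control injury, where the report has 0, and fitting only the groups compared also called 5 for ECM. For PE against uninjured muscle, leaving out 1 library gave 2 to 6 in B6 mice and 0 to 6 in MRL mice. In MRL mice equal totals called 6, library weights 5, quantile normalization 0 and only the groups compared 0, against 3. For PE against uninjured muscle the median over all genes was 0.02 in B6 and 0.07 in MRL mice, 0.43 and 0.47 under equal totals, and -0.14 and -0.09 after quantile normalization.

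With replicate number as a block, 4 genes were called between strains with PE and 5 for PE against uninjured muscle in MRL mice. In the latter, residuals of same-numbered libraries correlated at -0.261, -0.051 and 0.137. The replicate block moved no other count by over 1.5 times.

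Single values that changed sign were uncalled, apart from H2-Eb1 relative to Cd74. Relative to macrophage markers in place of Cd74, H2-Aa differed by -0.20 and Ciita by -0.16 between strains. H2-Eb1 relative to Cd74 was 0.28 on the log2(CPM + 1) scale.

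The other changes of sign were in low genes. With 1 library left out, the strain difference ranged from -0.20 to 1.25 for H2-DMa and from -0.56 to 0.41 for Cd86 in uninjured muscle, and for H2-DMb2 from -0.16 to 1.46 after the control injury and from -0.46 to 0.12 with ECM. Quantile normalization gave 0.11 for that of Cd86 and 0.080 for that of H2-DMb2 with ECM. For the control injury against uninjured muscle in B6 mice, H2-Eb1 ranged from -0.0057 to 1.52, H2-DMa from -0.98 to 0.47 and H2-DMb2 from -0.0095 to 1.87, with H2-DMa at 0.055 under equal totals. In MRL mice H2-DMa ranged from -0.30 to 0.89 and H2-DMb2 from -0.67 to 0.93, with H2-DMb2 at -0.35 under library weights. For ECM in MRL mice H2-DMa ranged from -0.39 to 0.65, and was 0.046 on the log2(CPM + 1) scale and 0.045 under equal totals. The ratio of H2-Aa to Cd74 ranged from -0.063 to 0.092 and that of Ciita from -0.014 to 0.14. The causes of these changes were not tested. Values under 3 counts, in 8 of 12 B6 libraries for H2-Ea-ps and 4 of 12 MRL libraries for H2-Eb1, limit what the depth can show.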
